A study of Homo sapiens with 15 samples.

Results

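The genes examined here encode the translation initiation factors, the proteins that bring a ribosome, the initiator methionyl-tRNA and an mRNA together at a start codon. They were taken by symbol from the deposited count table: every row whose symbol begins with EIF and a family number from 1 to 6, without the eIF2α kinases, hyphenated readthrough or antisense symbols and pseudogene rows, and with the 3 genes of the eIF4E-binding proteins kept. This gave 52 of 41412 rows, and 51 of the 52 had enough counts to be tested. EIF4EBP3, with 0 to 8 counts per library, was the exception.

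The cells were HepG2, an established line from a human liver carcinoma, and each of the 5 groups had 3 biological replicates. The first group was left without transfection. The other 4 received 1 µg of an mRNA encoding enhanced GFP, packaged in the lipid nanoparticle reagent NanoLNP. This mRNA was non-cloaked, or it was cloaked with the reagent CR-3 under conditions termed weak (0.1 M, 0.5 h, 25 °C), medium (0.5 M, 1 h, 30 °C) or strong (1 M, 2 h, 37 °C). All 5 groups were seeded at 500000 cells per well and lysed 48 h after transfection, and poly(A) RNA was sequenced. No group received particles without mRNA, so in every comparison with untransfected cells the particle and the mRNA cannot be told apart. The study asked how cloaking of an mRNA alters the transcriptome of the cells that receive it.

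Initiation begins when eIF2, carrying GTP and the initiator tRNA, joins eIF1, eIF1A, eIF5 and the multi-subunit eIF3 on the small ribosomal subunit. The eIF4F complex, made of the cap-binding protein eIF4E, the scaffold eIF4G and the helicase eIF4A, recruits that assembly to the capped end of an mRNA, and the 4E-binding proteins hold eIF4E away from eIF4G until mTORC1 phosphorylates them. After start-codon recognition eIF2 is left with GDP, and the exchange factor eIF2B reloads it, a step that is blocked when a stress kinase phosphorylates the α subunit of eIF2. Hepatocytes and the lines derived from them make large amounts of secreted protein.

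Library totals ran from 57128519 to 78548789 counts. HepG2 identity was visible in hepatocyte markers such as ALB, at 4493 to 6914 CPM (counts relative to library size, after TMM scaling). Not all were high: TTR was the lowest of the 9, at 3.097 to 6.878 CPM, and FGB the next, at 58.76 to 105.5 CPM. The leukocyte marker PTPRC was at 0 to 0.109 CPM. LYZ, which also marks myeloid cells, reached 870 to 1533 CPM. The 4 fibroblast markers summed to 17.2 to 21.8 CPM in untransfected and 14.4 to 20.8 CPM in transfected libraries, with COL1A1 at 7.47 to 11.4, COL3A1 at 4.92 to 9.90 and PDGFRB at 0.758 to 4.13 CPM, and THY1 at 0. Over the 9 hepatocyte markers the summed level was 14830 to 18060 CPM in untransfected and 15750 to 20260 CPM in transfected libraries. The first principal component of all tested genes (21.1% of the variance) placed the untransfected libraries at -70.5 to -68.6 and 11 transfected libraries at -7.81 to 44.1, with weak-cloaked replicate 1 at -51.6. That library was kept, and results that rest on it are given with and without it.

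Per unit of transcript length, the levels of the members spanned a wide range in untransfected cells. Levels per kilobase of the longest annotated transcript (RPKM) were highest for the helicase gene EIF4A1 (479 ± 226, SD, n = 3), for EIF5A, whose product relieves stalled ribosomes (426 ± 51.0), for the eIF3 subunit gene EIF3I (314 ± 24.4) and for EIF1 (287 ± 12.3). The spread of EIF4A1 was set by 1 library and covers the levels of the next 3 genes. EIF5 stood at 10.4 ± 1.82 RPKM, EIF4E at 5.80 ± 1.40 and its repressor EIF4EBP1 at 62.3 ± 3.85. The order of the last pair rests on the length used, 11523 nt for EIF4E against 1020 nt for EIF4EBP1, since their levels without it were 66.8 ± 16.1 and 63.5 ± 3.93 CPM. The lowest members were EIF2S3B (0.412 ± 0.0992), EIF4E3 (0.402 ± 0.200), EIF5AL1 (0.226 ± 0.0206), EIF4EBP3 and EIF4E1B. EIF2S3B and EIF5AL1 are near-identical copies of EIF2S3 and EIF5A, so their reads can be shared. EIF4E1B, an oocyte form of the cap-binding protein, had 0 to 14 counts per library and 0 in all 3 medium-cloaked libraries.

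To ask what delivery of the mRNA did, the 4 transfected groups were averaged and set against the untransfected group. The start-codon factors moved in opposite directions: EIF5 fell and EIF1 rose. Of the 14 eIF3 genes 3 were called higher and 1 lower, 2 eIF2B subunit genes were called lower, and the 4E-binding proteins split, with EIF4EBP1 higher and EIF4EBP2 lower. By the edgeR quasi-likelihood test, with p-values adjusted over 18380 genes after Benjamini and Hochberg, 11 of 51 members were called at an adjusted p below 0.05, 5 higher and 6 lower. That is 21.6% of the members, against 23.1% of all tested genes (10.4% higher, 12.7% lower), so the share of calls among initiation factors was near the background. DESeq2 called all 11 and 9 more, EIF4A1, EIF4A2, EIF4G3, EIF4H, EIF3D, EIF3F, EIF3G, EIF2B2 and EIF5A. The share of all tested genes that DESeq2 called is not given here, so its added calls are not shown to be particular to the members. The calls named below are those of edgeR unless DESeq2 is named. The changes were also small: 41 of 51 members had an absolute log2 fold change under 0.5, and EIF5 alone reached 1. The median over the members was 0.11, against -0.05 over all tested genes, and 35 members were positive and 16 negative. Under total-count scaling 20 of the 51 were positive and the medians were -0.11 for the members and -0.28 for all tested genes. Changes in bulk RNA do not separate fewer transcripts per cell from a different mixture of cells, and protein was not measured.

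**Figure D1:**
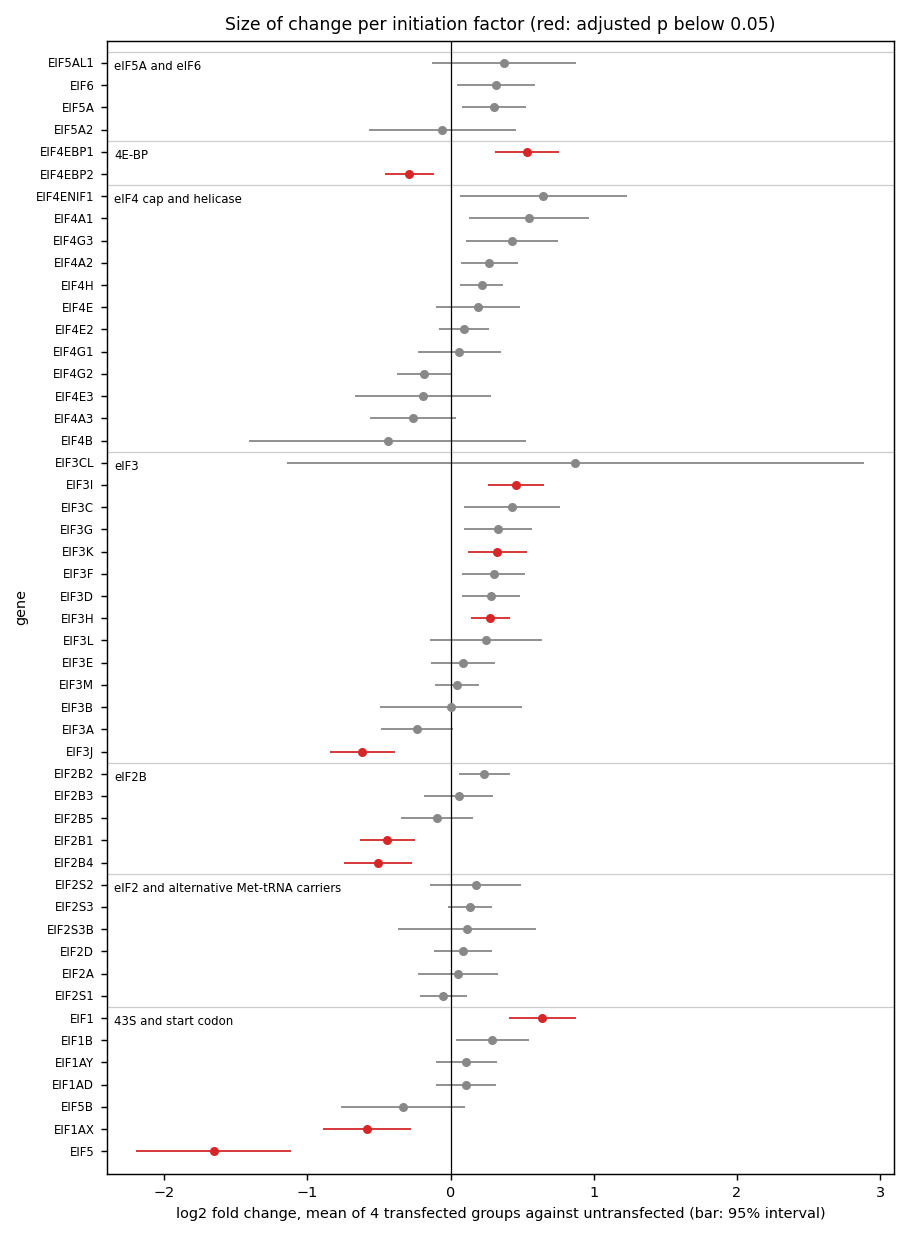
Log2 fold change of 50 initiation factor genes, transfected (mean of 4 groups) against untransfected, with bars for the 95% interval and the genes grouped by role. Red points are the 11 called genes, from EIF5 at -1.66 to EIF1 at 0.64; most other points lie within 0.5 of 0, and EIF4E1B (0 to 14 counts) and the untested EIF4EBP3 are not drawn.

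EIF5, the GTPase-activating protein that makes eIF2 hydrolyse its GTP at the start codon (ENSG00000100664, chr14:103333544-103345025, GRCh38), showed the largest change. Its level was 72.4, 63.0 and 50.8 CPM in untransfected cells. It was 25.6, 19.2 and 13.3 CPM in non-cloaked, 48.9, 17.0 and 14 in weak-cloaked, 18.9, 15.6 and 16.9 in medium-cloaked and 20.2, 17.7 and 13.3 in strong-cloaked cells. All 12 transfected libraries lay below all 3 untransfected ones, weak-cloaked replicate 1 only just so, and without that library the highest transfected value was 25.6 CPM. The log2 fold change was -1.66 ± 0.277 (SE), a 3.15-fold decrease, with an adjusted p of 0.00225 in the edgeR quasi-likelihood test, Benjamini-Hochberg adjusted.

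EIF1, which keeps the scanning ribosome from stopping at poor start sites, changed the other way (ENSG00000173812, chr17:41688885-41692668). It is known that eIF1 and eIF5 act against each other in start-site choice. EIF1 stood at 653, 701 and 649 CPM in untransfected cells. It reached 880, 990 and 1011 CPM in non-cloaked, 733, 1145 and 1168 in weak-cloaked, 1015, 1100 and 1100 in medium-cloaked and 1038, 1140 and 1191 in strong-cloaked cells. No transfected library overlapped the untransfected range, and weak-cloaked replicate 1 was again the nearest to it. EIF1 rose by 0.64 ± 0.12 on the log2 scale (1.56-fold, adjusted p = 0.00365, edgeR quasi-likelihood test, Benjamini-Hochberg).

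Set against each other per length, EIF1 exceeded EIF5 by 23.0, 28.4 and 32.6 times in the untransfected libraries. Both genes had already separated the groups in opposite directions, so separation of their ratio follows from that and adds no support. The ratio was 87.7 to 194 in non-cloaked, 137 to 180 in medium-cloaked and 131 to 228 in strong-cloaked libraries. In weak-cloaked cells it was 38.3, 172 and 212, so replicate 1 lay close to the untransfected libraries and the other two among the transfected ones.

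Upstream sequence of EIF1 is printed for this opposite-moving gene together with that of EIF3J and EIF4EBP2, called members whose RefSeq windows (GRCh38.p14) hold at least 100 bases free of annotated exons. Capitals mark the GC box (GGGCGG, or CCGCCC on the other strand), the CCAAT box (ATTGG on the other strand) and the core of the cAMP response element (TGACGT, or ACGTCA); all 3 genes lie on the plus strand.
EIF1, chr17:41688635-41688884: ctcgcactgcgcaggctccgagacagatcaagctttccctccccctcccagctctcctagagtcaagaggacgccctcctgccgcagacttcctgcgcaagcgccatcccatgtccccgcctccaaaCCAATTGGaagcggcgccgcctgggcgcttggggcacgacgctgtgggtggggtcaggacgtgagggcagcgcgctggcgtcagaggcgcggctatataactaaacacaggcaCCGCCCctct
EIF3J, chr15:44536924-44537056: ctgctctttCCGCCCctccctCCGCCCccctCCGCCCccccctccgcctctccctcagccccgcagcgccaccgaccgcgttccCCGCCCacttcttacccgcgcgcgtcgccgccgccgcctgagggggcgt
EIF4EBP2, chr10:70403895-70404144: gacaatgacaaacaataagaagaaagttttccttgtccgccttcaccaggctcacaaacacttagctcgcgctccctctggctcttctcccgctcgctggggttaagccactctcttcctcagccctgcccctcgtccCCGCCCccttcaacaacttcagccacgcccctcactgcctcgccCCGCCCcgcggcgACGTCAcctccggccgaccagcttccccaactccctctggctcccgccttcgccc
The EIF1 window carries 1 GC box 10 bases upstream of the RefSeq start and a pair of overlapping CCAAT boxes on opposite strands 123 and 120 bases upstream. The EIF3J stretch carries 4 GC boxes, and that of EIF4EBP2 has 2 GC boxes and 1 TGACGT core 55 bases upstream. EIF5, whose window overlaps annotated exons and is not printed, also has a TGACGT core, 125 bases upstream. These are matches of letters and were not tested for binding.

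The other start-codon factors included EIF1AX, which encodes eIF1A and has a near-identical copy on the Y chromosome with which reads can be shared. It was at 78.3, 80.6 and 120 CPM in untransfected cells, and the transfected libraries ran from 48.6 through a median of 63.3 to 87.1 CPM. Untransfected replicate 3 was the highest library, and the groups overlapped through weak-cloaked replicate 1. EIF1AX fell by 0.58 ± 0.156 on the log2 scale (adjusted p = 0.0176, edgeR quasi-likelihood test, Benjamini-Hochberg). The call was lost without untransfected replicate 3 (-0.36, adjusted p = 0.157). EIF1B, EIF1AD, EIF1AY and the subunit-joining GTPase gene EIF5B did not pass, with log2 fold changes from -0.33 to 0.29.

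No gene of eIF2 itself passed the edgeR or the DESeq2 test, though EIF2S3 did with offsets for length and GC (0.31, adjusted p = 0.013). EIF2S1, the α subunit on which the stress kinases act, was at 129, 128 and 110 CPM in untransfected cells and between 103 and 137 CPM, with a median of 118, in transfected ones. The ranges overlapped fully, and the log2 fold change was -0.05, with a 95% interval from -0.22 to 0.11. The other 5 genes of this group, EIF2S2, EIF2S3, EIF2S3B and the alternative tRNA carriers EIF2A and EIF2D, lay between 0.05 and 0.18.

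Of the 5 eIF2B genes, 2 were called lower, EIF2B1 and EIF2B4. EIF2B1, the α subunit (chr12:123620406-123633766), was at 51.1, 47.3 and 42.2 CPM in untransfected cells. It was at 34.7, 36.2 and 36.3 CPM in non-cloaked, 40.1, 34.3 and 31.8 in weak-cloaked, 33.7, 32.5 and 32.0 in medium-cloaked and 36.5, 36.9 and 28.8 in strong-cloaked cells. Every transfected library was lower than every untransfected one, and the log2 fold change was -0.44 ± 0.098 (adjusted p = 0.00745, edgeR quasi-likelihood test, Benjamini-Hochberg).

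EIF2B4, the δ subunit (chr2:27364352-27370486), was at 73.2, 64.6 and 61.4 CPM in untransfected cells. In non-cloaked cells it was at 58.1, 56.2 and 69.1 CPM, a log2 difference of -0.12 from untransfected cells that did not pass (adjusted p = 0.673). The weak-cloaked libraries held 57.6, 36.7 and 46.7 CPM, the medium-cloaked 43.6, 36.9 and 45.2 and the strong-cloaked 43, 38.3 and 36.9. Over the 4 groups together EIF2B4 fell by 0.51 ± 0.12 on the log2 scale (adjusted p = 0.0102, edgeR quasi-likelihood test, Benjamini-Hochberg). The call was lost without untransfected replicate 1 (adjusted p = 0.0585). EIF2B5, the catalytic ε subunit, was at 90.3, 67.2 and 75.7 CPM in untransfected and 58.7 to 90.4 CPM (median 75.4) in transfected libraries, with a log2 fold change of -0.10 ± 0.127. EIF2B3 (0.06) did not pass either, and EIF2B2 (0.24) passed in DESeq2 and not in edgeR.

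Of the 14 eIF3 genes 12 were positive, with a median log2 fold change of 0.28, and 4 were called. With total-count scaling 9 were positive and 3 called, EIF3I higher and EIF3J and EIF3A lower. EIF3I rose from 495, 456 and 424 CPM in untransfected cells to 494 to 706 CPM (median 632) in transfected ones, by 0.45 ± 0.1 on the log2 scale (adjusted p = 0.00727, edgeR quasi-likelihood test, Benjamini-Hochberg). Weak-cloaked replicate 1, at 494 CPM, was the sole transfected library inside the untransfected range. EIF3H rose from 244, 275 and 251 CPM to 278 to 352 CPM (median 307) with no overlap, by 0.28 ± 0.0707. EIF3K rose from 185, 164 and 159 CPM to 162 to 238 CPM (median 218), by 0.33 ± 0.106. The EIF3H and EIF3K calls were close to the threshold, at an adjusted p of 0.0139 and 0.0401 by the edgeR quasi-likelihood test, Benjamini-Hochberg adjusted. EIF3H lost its call without untransfected replicate 1 or 3 (adjusted p = 0.0825 and 0.0639), and EIF3K in 12 of 15 fits that left out 1 library.

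EIF3J was the sole eIF3 gene called lower with TMM scaling (ENSG00000104131, chr15:44537057-44563029). Its product is a loosely bound subunit that sits near the mRNA channel of the ribosome. The level was 68.4, 64.8 and 82.0 CPM in untransfected cells. It was 47.4, 40.0 and 44.1 CPM in non-cloaked, 62.9, 46.0 and 40.0 in weak-cloaked, 48.6, 50.8 and 48.0 in medium-cloaked and 46.1, 45.5 and 43.2 in strong-cloaked cells. Each transfected library was lower than each untransfected one, with weak-cloaked replicate 1 the closest. The log2 fold change was -0.62 ± 0.115 (1.53-fold lower, adjusted p = 0.00363, edgeR quasi-likelihood test, Benjamini-Hochberg). EIF3A, the largest scaffold subunit, was at 377, 422 and 473 CPM in untransfected and 259 to 455 CPM (median 378) in transfected libraries and did not pass (-0.23 ± 0.128, adjusted p = 0.208).

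None of the 13 eIF4 genes was called by edgeR, while DESeq2 called EIF4A1, EIF4A2, EIF4G3 and EIF4H. With offsets for length and GC edgeR called EIF4A2, EIF4E, EIF4G3 and EIF4H higher. EIF4E was at 54.5, 60.8 and 85.0 CPM in untransfected and 57.7 to 95.6 CPM (median 74.6) in transfected cells, a log2 difference of 0.19 ± 0.15 (0.70 with the offsets, adjusted p = 0.00592). EIF4G1, the main scaffold, was at 430, 338 and 272 CPM in untransfected and 272 to 462 CPM (median 364) in transfected cells, a log2 difference of 0.06 ± 0.147. For both, the spread among the 3 untransfected libraries exceeded the difference. Apart from EIF4E1B, with its 0 to 14 counts, the largest estimates in this group were 0.65 for EIF4ENIF1, the nuclear import partner of eIF4E, and 0.55 for EIF4A1, whose reads are described below with those of its readthrough row.

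The 2 testable 4E-binding protein genes moved apart. EIF4EBP1 (ENSG00000187840, chr8:38030341-38060365) was at 67.4, 63.6 and 59.6 CPM in untransfected cells. It was at 79.4, 96.2 and 106 CPM in non-cloaked, 69.3, 88.3 and 101 in weak-cloaked, 86.0, 94.4 and 83.3 in medium-cloaked and 100, 101 and 97.6 in strong-cloaked cells. All transfected libraries were higher, weak-cloaked replicate 1 by the least, and EIF4EBP1 rose by 0.53 ± 0.114 on the log2 scale (adjusted p = 0.00665, edgeR quasi-likelihood test, Benjamini-Hochberg).

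EIF4EBP2 (ENSG00000148730, chr10:70404379-70428618) was at 123, 112 and 124 CPM in untransfected cells. It was at 110, 99.1 and 81.1 CPM in non-cloaked, 103, 92.5 and 99.9 in weak-cloaked, 100, 96.3 and 105 in medium-cloaked and 95.1, 92.9 and 103 in strong-cloaked cells. The groups did not overlap, though non-cloaked replicate 1 came close to the lowest untransfected library, and EIF4EBP2 fell by 0.29 ± 0.087 on the log2 scale (adjusted p = 0.0303, edgeR quasi-likelihood test, Benjamini-Hochberg). The call was lost without untransfected replicate 1, 2 or 3 or medium-cloaked replicate 2 (adjusted p = 0.111, 0.0579, 0.108 and 0.0504). With offsets for length and GC the log2 fold change of EIF4EBP2 was -0.03 (adjusted p = 0.834, edgeR quasi-likelihood test, Benjamini-Hochberg), so the fall was not seen there. Per length, EIF4EBP1 exceeded EIF4EBP2 by 3.41 to 4.04 times in untransfected libraries, 4.81 times in weak-cloaked replicate 1 and 5.15 to 9.34 times in the other 11 transfected libraries. That order rests on the length used, 1020 nt for EIF4EBP1 against 7257 nt for EIF4EBP2. Without it EIF4EBP1 was the lower in untransfected cells, at a mean of 63.5 against 120 CPM. Both genes had already separated the groups, so separation of their ratio adds no support.

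The 4 genes of eIF5A and eIF6 held no call in edgeR, and DESeq2 called EIF5A (0.32, adjusted p = 0.0488). EIF5A was at 728, 624 and 577 CPM in untransfected and 638 to 986 CPM (median 785) in transfected cells (log2 fold change 0.30 ± 0.113, adjusted p = 0.0694). EIF6, which keeps the large ribosomal subunit from joining too early, was at 235, 223 and 250 CPM in untransfected and 192 to 400 CPM (median 294) in transfected cells (0.32 ± 0.139, adjusted p = 0.116). Weak-cloaked replicate 1 was the lowest transfected library for both genes, and both were called without it (adjusted p = 0.0193 and 0.0215, edgeR quasi-likelihood test, Benjamini-Hochberg).

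Complete separation of the 12 transfected from the 3 untransfected libraries was seen for 4 members below and 3 above, 7.84% and 5.88% of those tested, against 5.74% and 5.12% of all tested genes. Without weak-cloaked replicate 1 it was 5 below and 8 above (9.8% and 15.7%, against 11.8% and 10% of all tested genes). Without that library 22 members were called (43.1%), 15 higher (29.4%) and 7 lower (13.7%), and these included all 11. The background rose as well, to 32.4% of all tested genes, 14.3% higher and 18.2% lower. The added genes were EIF3C, EIF3D, EIF3F, EIF3G, EIF1B, EIF2B2, EIF4A2, EIF4G2, EIF4H, EIF5A and EIF6.

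Each transfected group was also set against the same 3 untransfected libraries, which these comparisons therefore share. In non-cloaked cells 5 members were called (3 higher, 2 lower), against a background of 6.5% of all tested genes (3.84% higher, 2.66% lower). In weak-cloaked cells EIF1, which rose, was the sole member called, against 3.29% (2.11% higher, 1.19% lower). That count depends on weak-cloaked replicate 1. Leaving out each library in turn gave 0 to 15 members there, the highest without that replicate, and the background of that fit is not given here. In medium-cloaked cells 10 were called (6 higher, 4 lower), against 13.7% (6.25% higher, 7.49% lower). In strong-cloaked cells 8 were called (3 higher, 5 lower), against 15.1% (7.99% higher, 7.11% lower). EIF5 stood at log2 fold changes of -1.68, -1.22, -1.86 and -1.86 in non-cloaked, weak, medium and strong cloaking, and EIF1 at 0.52, 0.60, 0.68 and 0.75. EIF3J was at -0.71, -0.53, -0.55 and -0.68 and EIF4EBP1 at 0.57, 0.44, 0.47 and 0.65 in the same order. The helicase gene EIF4A2 (0.41, adjusted p = 0.0481) and the scaffold gene EIF4G3 (0.81, adjusted p = 0.0216) passed the edgeR quasi-likelihood test, Benjamini-Hochberg adjusted in medium-cloaked cells.

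**Figure D2:**
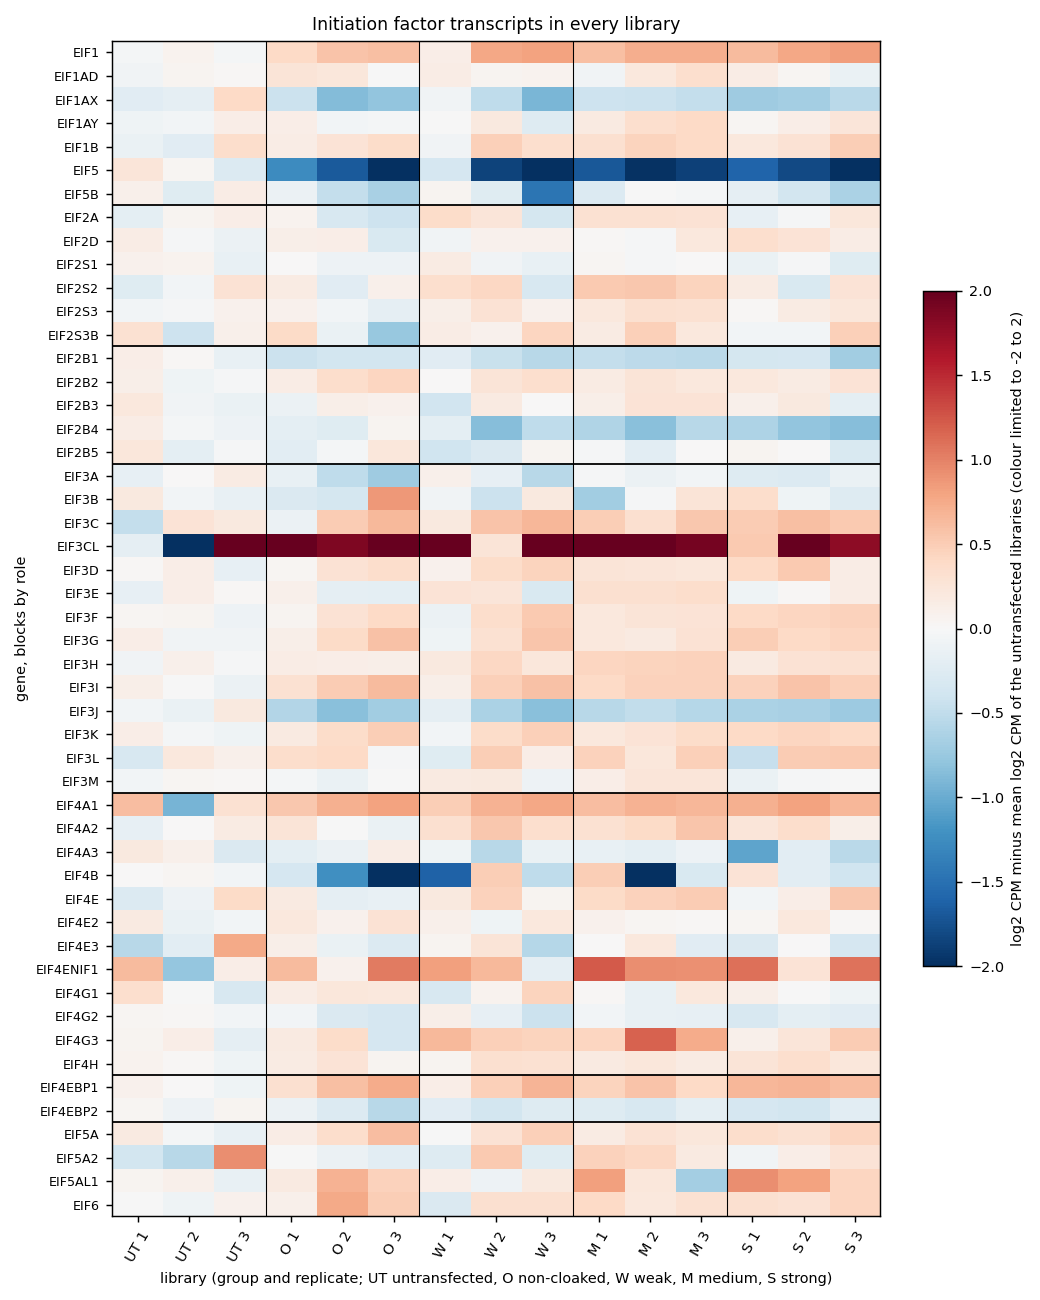
Log2 level of each drawn initiation factor gene in every library relative to the mean of the untransfected libraries, with genes ordered by role. The rows of EIF5 (fold change -1.66) and EIF1 (0.64) change colour at the boundary between untransfected and transfected libraries, weak-cloaked replicate 1 is paler than its neighbours in both, and EIF3CL and EIF4B vary from library to library within groups.

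Cloaking itself was examined by comparing weak, medium and strong cloaking with the non-cloaked mRNA. No initiation factor gene was called in weak, medium or strong cloaking, or in the test for any difference among the 4 transfected groups, by edgeR's quasi-likelihood test or by DESeq2. The background was 0.00544%, 0%, 0% and 0.00544% of all tested genes. At an unadjusted p below 0.05 there were 3, 12, 2 and 6 members, and 721, 1745, 663 and 753 of all 18380 genes.

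The smallest p among members was that of EIF2B4 in strong-cloaked cells. Its levels there and in medium-cloaked cells, 36.9 to 45.2 CPM, were below all 3 non-cloaked libraries, while weak-cloaked replicate 1 lay inside their range. The log2 differences from non-cloaked cells were -0.38, -0.55 and -0.64 for weak, medium and strong cloaking, with 95% intervals from -0.69 to -0.07, -0.86 to -0.24 and -0.95 to -0.32. The adjusted p was 0.973, 0.460 and 1.00 in the edgeR quasi-likelihood test, Benjamini-Hochberg adjusted, so EIF2B4 did not pass in any of them.

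In medium-cloaked cells EIF3H (344, 349 and 352 CPM against 285, 281 and 278 in non-cloaked cells) and EIF4G3 (38.1, 63.7 and 47.5 against 32.0, 36.4 and 22.4) also had small unadjusted p. Both groups were separate for each gene, with log2 differences of 0.31 ± 0.0877 and 0.72 ± 0.204, and neither passed after adjustment (adjusted p = 0.457 and 0.458, edgeR quasi-likelihood test, Benjamini-Hochberg). In weak-cloaked cells EIF4A2 was at 680, 794 and 688 CPM, against 651, 545 and 498 in non-cloaked cells (0.35 ± 0.126). EIF2S3 was at 366, 413 and 356 CPM, against 357, 325 and 298 (0.21 ± 0.0982). The groups were separate for EIF4A2 and overlapped for EIF2S3, and neither passed (adjusted p = 0.973 for each).

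In strong-cloaked cells the splicing-linked helicase gene EIF4A3 was at 83.6, 150 and 119 CPM, against 152, 161 and 192 in non-cloaked cells (-0.51 ± 0.197). EIF2D was at 89.8, 86.1 and 78.6 CPM, against 77.1, 77.7 and 57.2 (0.26 ± 0.131). Both pairs of groups were separate, and neither gene passed (adjusted p = 1.00 for each, edgeR quasi-likelihood test, Benjamini-Hochberg). The genes named for each cloaked comparison were chosen by smallest p, so separation of their groups follows in part from that choice and adds no support.

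For the genes that separated transfected from untransfected cells, the interval of the difference between strong-cloaked and non-cloaked cells was wide for EIF5 (log2 difference -0.18, 95% interval from -0.94 to 0.58). It was narrower for EIF1 (0.23, from -0.06 to 0.51), EIF4EBP1 (0.08, from -0.19 to 0.36) and EIF3J (0.04, from -0.26 to 0.33). These intervals include 0 and also differences of the size of some called changes, so they do not show that the grades act alike.

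Counts of a few members differed strongly among replicates of a group. EIF3C and EIF3CL are near-identical neighbours on chromosome 16, so their reads can be shared, which was not tested. EIF3CL was at 39.3, 5.25 and 429 CPM in untransfected cells, an 81.7-fold range among replicates, and between 53.4 and 595 CPM in transfected ones. EIF3C ran from 315 to 691 CPM. Together the 2 rows were at 354, 537 and 932 CPM in untransfected and 685 to 1258 CPM in transfected cells, so the sum varied among replicates as well. The 2 rows summed gave a log2 fold change of 0.56 ± 0.271 (adjusted p = 0.155, edgeR quasi-likelihood test, Benjamini-Hochberg), so the sum was not called. EIF3C alone (0.43, adjusted p = 0.0844) was called with offsets for length and GC (0.54, adjusted p = 0.0461), with a replicate block (0.45, adjusted p = 0.0321) and without weak-cloaked or non-cloaked replicate 1.

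EIF4A1 was at 1176, 404 and 945 CPM in untransfected and 1075 to 1343 CPM in transfected cells. In untransfected replicate 2 the overlapping readthrough row SENP3-EIF4A1 held 22870 counts (262 CPM), against 0 in all other libraries, and SENP3 itself was at 10.4 CPM there, against 75.6 to 115 CPM elsewhere. EIF4A1 alone did not pass in edgeR (0.55 ± 0.215, adjusted p = 0.0815) and passed in DESeq2 (0.56, adjusted p = 0.0433). By edgeR it was 0.21 without untransfected replicate 2 and 0.87, called, without untransfected replicate 1 (adjusted p = 0.199 and 0.0264). Summed with its readthrough row it rose by 0.41 ± 0.13 (adjusted p = 0.0381, edgeR quasi-likelihood test, Benjamini-Hochberg), a sum chosen after the values were seen.

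EIF4B, the cofactor of the eIF4A helicase, was at 575, 586 and 548 CPM in untransfected cells and between 101 and 801 CPM in transfected ones. Medium-cloaked replicates 1 and 2 differed 7.92-fold, while the EIF4B pseudogene rows summed to 2.30 to 4.30 CPM in all libraries. The mean difference was -0.44 ± 0.493. The EIF4EBP3 row, with at most 8 counts, sat beside the readthrough row ANKHD1-EIF4EBP3, which held 117 to 4881 counts. Differences of 3-fold or more among replicates of a group were seen in 4 of 51 members (7.84%), against 33.6% of all tested genes.

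**Figure D3:**
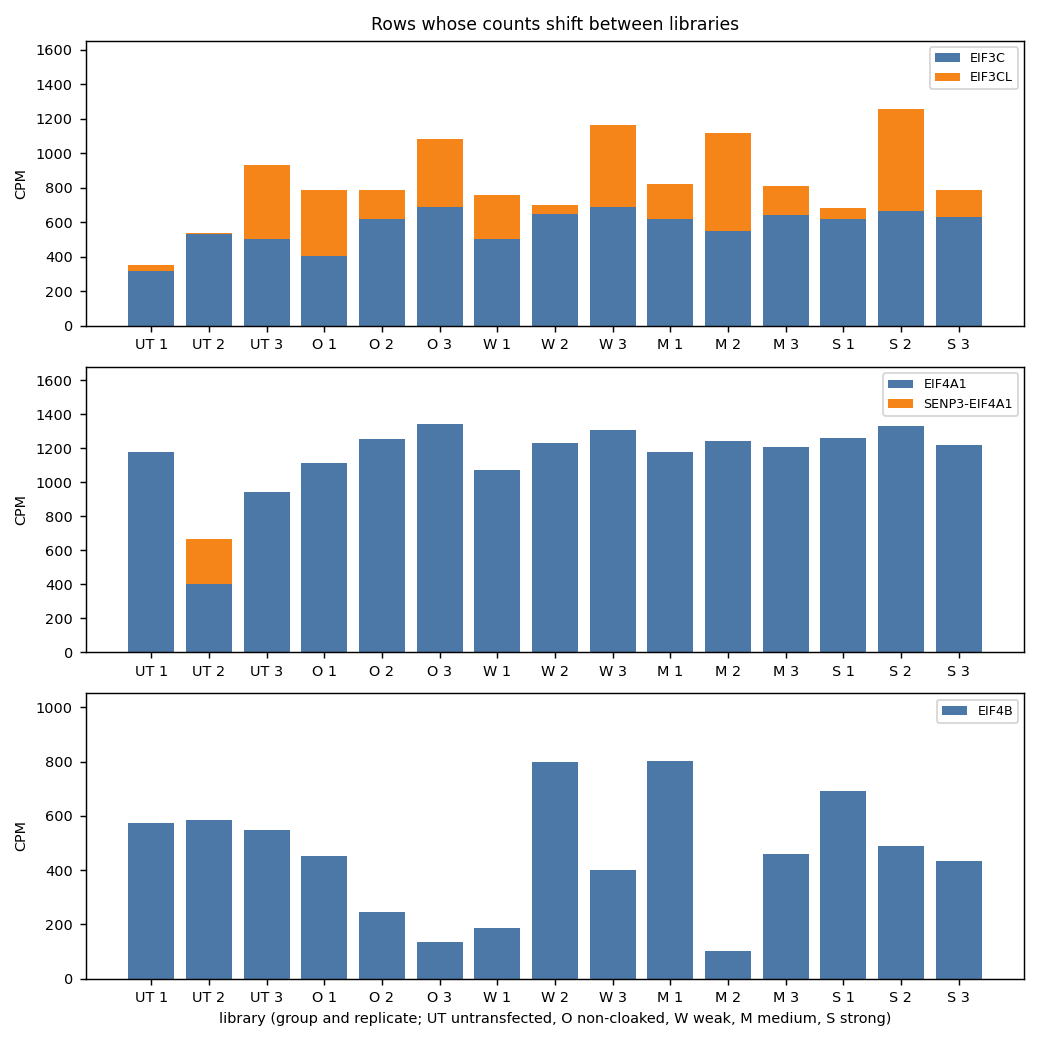
CPM in each of the 15 libraries for EIF3C stacked with EIF3CL, EIF4A1 stacked with SENP3-EIF4A1, and EIF4B; each axis starts at 0. EIF3CL ranges from 5.25 to 595 CPM with no order by group, SENP3-EIF4A1 appears in untransfected replicate 2 alone (262 CPM), and EIF4B ranges from 101 to 801 CPM among transfected libraries.

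Regulators of initiation were read from 4 lists of pathway genes, in the same comparison of transfected with untransfected cells, whose background was 23.1% called (10.4% higher, 12.7% lower). Of 13 genes of the eIF2α kinases and their phosphatase, 1 rose and 1 fell, a smaller share than that. PPP1R15A, the stress-induced subunit (GADD34) that directs a phosphatase to eIF2α, was at 47.4, 57.7 and 43.6 CPM in untransfected cells, 62.0 in weak-cloaked replicate 1 and 90.2 to 265 in the other transfected libraries. It rose by 1.81 ± 0.391 on the log2 scale (adjusted p = 0.0074, edgeR quasi-likelihood test, Benjamini-Hochberg). EIF2AK2, the double-stranded RNA sensor PKR, was at 33.9, 40.8 and 38.3 CPM in untransfected cells, 37.0 in weak-cloaked replicate 1 and 20.9 to 29.1 in the other 11 libraries. It fell by 0.51 ± 0.13 (adjusted p = 0.0146, same test), and its call was lost without untransfected replicate 2 or 3 (adjusted p = 0.0869 and 0.0525) and with offsets for length and GC (adjusted p = 0.681).

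Of 21 genes of the mTORC1 arm upstream of the 4E-binding proteins, 4 rose and 2 fell, near the background of 23.1%. RHEB, the GTPase that activates mTORC1, was at 97.1, 95.1 and 118 CPM in untransfected and 107 to 154 CPM (median 138) in transfected libraries, and rose by 0.39 ± 0.0974 on the log2 scale. RRAGD, a GTPase of the lysosomal amino acid signal, went from 4.80, 6.66 and 7.92 CPM to 7.86 to 10.3 CPM (median 9.02), a rise of 0.50. TBC1D7 and SESN2 act as inhibitors of the pathway, the first as a subunit of the TSC complex. TBC1D7 went from 17.7, 24.6 and 17.2 CPM to 24.2 to 37.4 CPM (median 30.4), a rise of 0.60, and SESN2 from 43.5, 42.3 and 38.8 CPM to 39.7 to 60.7 CPM (median 54.5), a rise of 0.37. The groups overlapped for all 4 of these genes. RPS6KB1, the S6 kinase (-0.78), and RPTOR (-0.29), the subunit that presents substrates, fell. All 4 increases lost their call under total-count scaling (adjusted p = 0.0677 to 0.247), and each lost it without 1 or more of the untransfected libraries. RPS6KB1 lost its call in 12 and RPTOR in 7 of 15 fits that left out 1 library, and RPS6KB1 also with offsets for length and GC (-0.40, adjusted p = 0.0596).

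Among 20 partners at the cap, poly(A) tail and ribosome, 1 rose and 4 fell, near the background of 23.1%. BZW2, a mimic of eIF5 that competes for its contacts, was at 42.3, 20.1 and 39.5 CPM in untransfected cells and 52.2 to 83.8 CPM in transfected ones, and rose by 0.91 ± 0.194 (adjusted p = 0.00638, edgeR quasi-likelihood test, Benjamini-Hochberg). NCBP1, of the nuclear cap-binding complex, fell by 0.89, from 22.5, 27.4 and 26.6 CPM to 8.48 to 27.6 CPM (median 13.1). ABCE1, a ribosome recycling factor, fell by 0.64, from 53.2, 75.1 and 72.3 CPM to 28.5 to 58.1 CPM (median 42.8). DENR fell by 0.34, from 72.6, 77.8 and 73.4 CPM to 50.3 to 79.1 CPM (median 57.7), and the helicase gene DDX3X by 0.48. The groups overlapped for NCBP1, ABCE1 and DENR, and weak-cloaked replicate 1 held the highest transfected value of NCBP1 and DENR. Of 15 fits that left out 1 library, NCBP1 lost its call in 3, ABCE1 in 6, DDX3X in 11 and DENR in 10, while BZW2 lost it in none. With offsets for length and GC the calls of ABCE1 (-0.31, adjusted p = 0.187), DDX3X (-0.12, adjusted p = 0.296) and DENR (-0.11, adjusted p = 0.326) were lost.

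Of 16 elongation and termination factors, 6 rose and 3 fell, against 10.4% higher and 12.7% lower over all tested genes. The risers were EEF1B2 (0.57), EEF1D (0.53), EEF1G (0.79), EEF1A1 (0.43) and EEF1A2 (0.69), which together form the eEF1 machinery that delivers aminoacyl-tRNA, and EEF2 (0.40), the translocase. EEF1B2 went from 797, 926 and 834 CPM to 1007 to 1497 CPM (median 1284) with no overlap. EEF1D went from 442, 410 and 443 CPM to 461 to 733 CPM (median 631), also with no overlap, and EEF1A2 from 127, 160 and 123 CPM to 144 to 274 CPM (median 231), with overlap. EEF2K, the kinase that inactivates eEF2, fell by 1.32 ± 0.328, from 100, 72.1 and 72.8 CPM to 13.2 to 47.9 CPM in 11 transfected libraries and 74.4 in weak-cloaked replicate 1. GSPT2, a rare form of the termination factor eRF3, fell by 1.13, from 1.02, 0.995 and 1.09 CPM to 0.248 to 0.948 CPM (median 0.462), and EEFSEC fell by 0.30. EEF1B2, EEF1D and GSPT2 held their calls in all 15 fits that left out 1 library. EEF2K lost its call without untransfected replicate 1 (adjusted p = 0.0727), EEF1G and EEF1A2 in 2 fits each, EEF2 in 3, EEF1A1 in 9 and EEFSEC in 10. EEF1A1, which has many near-identical pseudogenes, and EEF2 were also not called with total-count scaling (adjusted p = 0.166 and 0.0897). The list had a median log2 fold change of 0.26, against -0.05 over all tested genes.

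The fold changes depend on how libraries are scaled. With total counts in place of TMM, 13 members were called, with 3 higher and 10 lower against 5 and 6 (over all tested genes 5.15% higher and 23.7% lower), and EIF3K and EIF3H were no longer called. EIF1 stood at 0.41, EIF4EBP1 at 0.30 and EIF3I at 0.22 under that scaling, all still called. The direction of a single member is thus relative to the other genes tested.

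Transcript length and GC content moved with the fold changes. Over all tested genes the median was -0.30 in the lowest quartile of GC and 0.13 in the highest, and the members in those quartiles had medians of 0.05 and 0.31. By length the medians went from 0.16 for the shortest quartile to -0.22 for the longest, with 0.33 and -0.01 for the members. Members were slightly longer than all tested genes (median 3593 against 3182 nt) and poorer in GC (45.8% against 49.4%). With offsets for both properties 20 members were called, 16 higher and 4 lower, and 8 of the 11 were among them. In the same fit the calls made up 39.2% of the members and 24.1% of all tested genes (12.8% higher, 11.3% lower). EIF1AX, EIF4EBP2 and EIF3K dropped out (adjusted p = 0.11, 0.834 and 0.0879 in edgeR's quasi-likelihood test), EIF5 stood at -1.41, EIF3J at -0.39, EIF4EBP1 at 0.23 and EIF1 at 0.70. The part of length and GC in the fold changes was not tested beyond this fit.

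RefSeq promoter windows of 250 bases before the start (GRCh38.p14) were matched for 44 of the 52 members, and each motif was counted on both strands. The GC box GGGCGG was in 68.18% of the members' windows and in 42.31% of all 27305, and in all 9 called members with a window. The E-box CACGTG, a site for MYC and related factors, was in 25.0% against 6.49%, and in 1 of the 9, EIF3K. TGACGT was in 11.36% against 7.42%, CCAAT in 36.36% against 33.04% and the ETS-type motif CCGGAAG in 18.18% against 8.82%. The full element TGACGTCA, TGATGNAA of the amino acid response and the NRF1 and YY1 motifs were in none of the 44. A start of C followed by 4 pyrimidines, the pattern of mTORC1-sensitive TOP mRNAs, was seen in 22.73% of the members against 4.04% of all, and EIF3K was the sole called gene among these 10. The 27305 windows were counted whether or not the gene was among the 18380 tested, so they are a set unlike the members. No test was made of these shares.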

How the data were processed

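Poly(A) RNA of 15 HepG2 libraries was sequenced, strand-specifically per the labels' protocols. The authors deposited 1 table of raw counts per gene symbol. The submitters' processing notes name HISAT2, HTSeq, DESeq2 1.46.0, R 4.4.2 and the build GRCh38. Which annotation and strand setting the counting used, and how the table was filtered, is not given in the sources used here, so overlapping genes, readthrough rows and near-identical copies are uncertain.

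Columns were matched to samples by library name. Counts were fitted in R 4.3.3 with edgeR 4.0.16 (filterByExpr, TMM, robust quasi-likelihood, 1 mean per group, all 15 libraries; limma 3.58.1 is required by edgeR), and p-values were adjusted over 18380 genes by Benjamini-Hochberg. Members were called at an adjusted p below 0.05. The standard error was the log2 fold change divided by the root of F, and 95% intervals are normal ones from it. They are narrower than the test implies. For EIF2D in strong-cloaked against non-cloaked cells the interval, 0.006 to 0.52, was wholly positive at an unadjusted p of 0.0653 (edgeR quasi-likelihood test). The biological coefficient of variation was 0.344, so replicate spread, not depth, sets the precision. Replicates differed by far more than counting noise. Positions, lengths and GC came from GENCODE 29, matched for 99.55% of tested genes.

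The members and lists were chosen with earlier results of these data known. The text gives library values for the called members whose mean log2 CPM was 1 or more (up to 12, of largest change), for EIF1, EIF5, EIF2S1, EIF2B5, EIF3A, EIF4E, EIF4A1, EIF4G1, EIF5A, EIF6 and the EIF4EBP genes whatever they did, for the 3 of smallest p where a cloaked comparison had no call, and for up to 4 called genes of each pathway list. EIF4B, EIF3CL, EIF4ENIF1 and the readthrough rows were chosen with their values in view. Alternatives were DESeq2 1.42.0, RLE and total-count scaling, 2 other filters, the replicate number as a block, loess offsets (span 0.3) for length and GC, only the groups compared, and each library left out. On simulated data for transfected against untransfected cells (18380 genes), recovery was 10 of 67 genes at 1.5-fold, 33 of 67 at 2-fold and 64 of 66 at 4-fold, with 8 false calls of 115.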

Additional observations from a re-analysis of the deposited data

How the results depend on the processing

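For transfected against untransfected cells, 11 members were called. Under DESeq2 there were 20, with offsets for length and GC 20, and with those offsets and the replicate number as a block 19. DESeq2 included all 11, the offsets 8 of them. Leaving out each library in turn gave 8 to 22, the highest without weak-cloaked replicate 1. In non-cloaked cells (5 called) DESeq2 gave 8, a fit to only the groups compared 3, and the fits that left out 1 library 0 to 12. In weak-cloaked cells (1 called) DESeq2 gave 9, the replicate block 2, the offsets 6, the offsets with the block 9 and the compared groups alone 0, with 0 to 15 on leaving out each library. In medium-cloaked cells (10 called) total-count scaling gave 6 and the offsets with the block 18, with 2 to 11 on leaving out each library. In strong-cloaked cells (8 called) DESeq2 gave 15, the offsets 13 and the offsets with the block 15, with 2 to 16 on leaving out each library. The highest of these ranges for non-cloaked, weak and strong cloaking came without weak-cloaked replicate 1. Apart from the shares given above for transfected against untransfected cells, the background of these alternative fits is not given here. A change in these counts is therefore not shown to be particular to the members. The comparisons with the non-cloaked group and the test among transfected groups had 0 members called under each alternative run.

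Signs turned for members that were not called. Total-count scaling put EIF4E at -0.031, EIF4G1 at -0.17, EIF2S3 at -0.091, EIF2D at -0.14 and the median of the members at -0.11. Offsets put EIF2S1 at 0.27 and EIF3A at 0.029 (0.27 and 0.028 with the replicate block). EIF2B5 turned without untransfected replicate 1 and EIF4G1 without untransfected replicate 3. Over the fits without 1 library, EIF2B5 ran from -0.19 to 0.026 and EIF4G1 from -0.093 to 0.24. The cause was not tested.

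Replicate numbers did not pair the samples: over 30 same-numbered pairs of libraries the correlation of deviations ran from -0.0635 to 0.174 (median 0.000142), 2 exceeded 0.1, and 7 of 15 libraries were closest to their own number. With the number as a block 12 members were called in place of 11. A fit of the groups compared alone was not run for the mean of the transfected groups, which uses all groups. Genes changed 1.5-fold were recovered in 14.9% of simulated cases. The simulated data held 115 calls, against 4242 in the measured data, so adjustment set a stricter threshold in the simulation. That share therefore does not carry over to the members, and how often their small changes are missed was not tested.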
